A study of Mus musculus with 12 samples.

Results

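The 9 genes described here encode the regulators that switch lipid synthesis in the liver: the sterol regulatory element-binding proteins (Srebf1 and Srebf2), their escort and retention proteins (Scap, Insig1 and Insig2), the carbohydrate response element-binding protein ChREBP (Mlxipl) with its partner Mlx, and the liver X receptors LXRα (Nr1h3) and LXRβ (Nr1h2). They were taken by gene symbol from the deposited tables, where all 9 of 9 were found among 55487 annotated genes, and all 9 were among the 15862 genes with enough counts to be tested. Liver RNA came from 12 male mice aged 16 to 18 months, 3 in each of 4 groups, fed or fasted overnight. Control mice carried floxed Foxo3 and were Cre-negative. Knockout mice were Foxo3 flox/flox and positive for Alb-cre, a Cre driven by the albumin promoter and thus aimed at hepatocytes, so other liver cells keep the gene. Foxo3 encodes a forkhead factor that is active when insulin is low.

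The SREBP proteins are made as precursors in the membrane of the endoplasmic reticulum. SCAP carries them to the Golgi, where proteases release the active factor, and INSIG proteins hold SCAP back when sterols are plentiful. SREBP-1c, a product of Srebf1, is known for driving fatty acid synthesis after feeding, in response to insulin and to LXR, while the product of Srebf2 mainly drives cholesterol synthesis and uptake. ChREBP responds to glucose metabolites and binds DNA with MLX, and the LXRs are nuclear receptors for oxysterols. These proteins are controlled largely by processing and ligand binding, which a transcript count does not measure.

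Library totals ranged from 17520058 to 22414976 counts, and the 9 genes held between 443 and 17987 counts per library, so that counting error was at most 4.75% of a value. Summed CPM (counts scaled to library size and composition) of 8 hepatocyte markers ranged from 65505 to 116806, and none of the markers was at 0 in all libraries. Foxo3 transcripts were higher, not lower, in libraries labelled knockout. Fed livers held 44.5 to 50.4 CPM in control and 58.8 to 62.2 in knockout, and fasted livers 38.1 to 44.3 and 46.6 to 53.6 CPM. The genotypes did not overlap in CPM in either state, as for 12.3% and 14% of all tested genes. In TPM (transcript abundance scaled for depth and gene length) the fed genotypes overlapped, at 13.6 to 19.2 in control and 18.5 to 20.2 in knockout. The fasted genotypes did not, at 11.9 to 15.1 and 15.6 to 17.5 TPM. The log2 differences of 0.36 fed and 0.33 fasted did not pass (edgeR adjusted p = 0.683 and 0.453), and their cause was not tested. A gene-level count takes reads from exons outside a deletion, so this does not check the genotype, and "knockout" below means the libraries labelled so. Fed control replicate 3 stood apart with high markers of stellate cells and fibroblasts (summed 641 CPM against at most 363 elsewhere) and of cholangiocytes (140.4 against at most 60.8). Fasted control replicate 3 stood apart with high markers of B and plasma cells (763 against at most 98.6). Fed knockout replicate 1 held the highest Srebf1 and Insig1 levels of all libraries. In bulk liver, fewer cells of a type and less RNA per cell cannot be told apart. No batch is named in the labels, and library names are numbered in blocks that follow the groups, so a difference between cohorts and one between groups cannot be told apart.

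Transcripts of 3 regulators differed between fed and fasted livers in each genotype, all lower in fasted livers: Srebf1, Insig1 and Mlxipl. In control livers 3 of 9 passed the threshold (edgeR quasi-likelihood test, Benjamini-Hochberg adjusted p under 0.05 over all tested genes) and in knockout livers 3 of 9, where 4.14% and 2.48% of all tested genes passed in either direction and 2.09% and 1.12% were lower. In CPM the fed and fasted libraries did not overlap for 6 of the 9 genes in controls and for 7 of 9 in knockouts, against 22.4% and 23.3% of all tested genes. Of these, Nr1h2 in controls and Scap in knockouts overlapped in TPM (transcript abundance scaled for depth and gene length). Genes called higher made up 2.05% in controls and 1.36% in knockouts, and 0 of the 9 were among them. With both genotypes averaged, 4 of 9 passed, the fourth being Nr1h3, which was higher (9.07% of all genes passed, 4.55% higher and 4.52% lower). By contrast 0 of 9 passed between genotypes in fed or in fasted livers or averaged over both, nor in the test of the interaction (edgeR), where 0%, 0.0315%, 0.0126% and 0.0063% of all genes did. In fasted livers 0.0252% of all genes were higher in knockout. At an unadjusted p under 0.05 the numbers of members were 0, 0, 0 and 1, against 6.12%, 9.01%, 7.91% and 7.19% of all genes, and DESeq2 called 0 members in each.

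**Figure D1:**
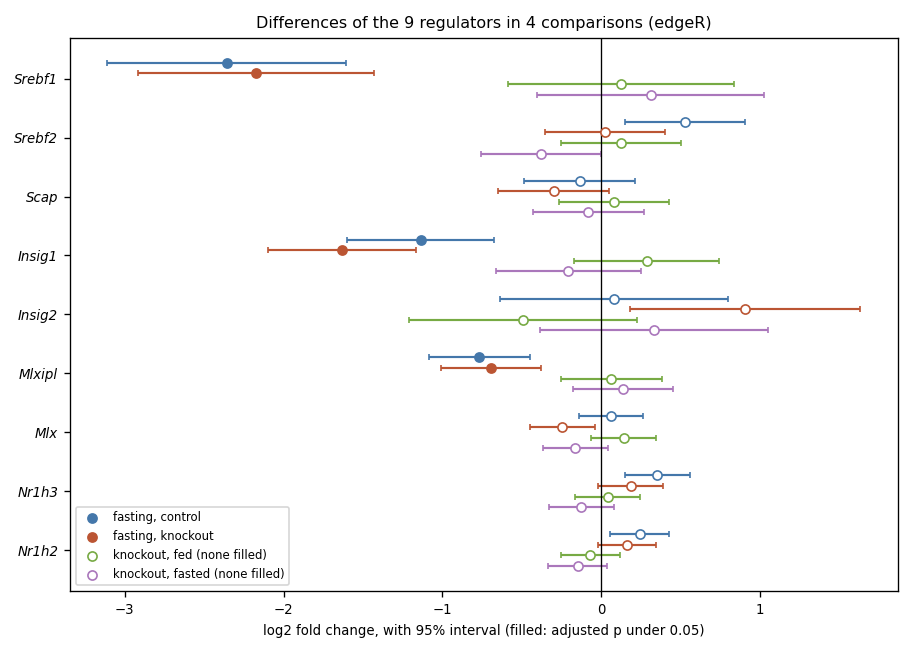
Log2 fold changes of the 9 regulators with 95% intervals (x axis) for fasting in control and in knockout livers and for knockout against control in fed and in fasted livers, from 12 libraries; filled points passed the adjusted p of 0.05. Srebf1, Insig1 and Mlxipl lie below 0 in both fasting comparisons, at -2.36, -1.14 and -0.77 in control and -2.17, -1.63 and -0.69 in knockout livers, and no genotype comparison has a filled point.

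The sequences before the start sites of the genes that fell, and of Insig2 as the paralog that did not, are shown because these genes are linked in 1 circuit and carry short elements that its factors are known to read. They are the bases before RefSeq start sites in build GRCm38.p6 (the mm10 build of the files), read 5′ to 3′ on the gene's own strand, with annotated exons left off. RefSeq gave 16 start sites for 9 of the 9 genes. Of the 3 Srebf1 starts the outermost and innermost are shown, and the one between them (chr11:60220628-60220877, 0 matches) is not, nor are the inner starts of Mlxipl and Insig2. For the innermost and the middle Srebf1 start, the bases just after the start were not found in an annotated Srebf1 transcript. Capitals mark every match to the motifs searched on both strands: the E-box CACGTG, the NF-Y box CCAAT, the short sterol element TCACNCCAC, the full sterol regulatory element (the same letters with A before them), the carbohydrate response element (CACGTG, 5 bases of any kind, CACGTG, so that it holds E-boxes), and the LXR direct repeat (AGGTCA, 4 bases of any kind, AGGTCA). The regions are chr11:60222582-60222831 (minus strand, upstream of Srebf1), chr11:60210472-60210721 (minus strand, in an intron of Srebf1), chr5:28071162-28071362 (plus strand, upstream of Insig1), chr5:135089640-135089889 (plus strand, upstream of Mlxipl) and chr1:121332590-121332839 (minus strand, upstream of Insig2).
Srebf1, outermost start: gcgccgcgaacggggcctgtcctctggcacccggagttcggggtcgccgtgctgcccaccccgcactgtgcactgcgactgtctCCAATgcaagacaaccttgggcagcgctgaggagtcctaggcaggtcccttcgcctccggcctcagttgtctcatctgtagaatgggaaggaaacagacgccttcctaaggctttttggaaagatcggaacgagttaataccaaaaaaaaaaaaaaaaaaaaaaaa
Srebf1, innermost start: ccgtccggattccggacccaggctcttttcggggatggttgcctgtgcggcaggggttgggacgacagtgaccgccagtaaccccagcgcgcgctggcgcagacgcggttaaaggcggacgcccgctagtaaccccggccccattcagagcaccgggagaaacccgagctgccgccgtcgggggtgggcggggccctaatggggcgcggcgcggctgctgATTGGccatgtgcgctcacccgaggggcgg
Insig1: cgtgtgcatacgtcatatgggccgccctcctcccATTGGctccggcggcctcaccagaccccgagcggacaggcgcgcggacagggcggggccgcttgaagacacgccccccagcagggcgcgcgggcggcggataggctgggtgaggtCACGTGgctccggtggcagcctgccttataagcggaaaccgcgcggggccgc
Mlxipl: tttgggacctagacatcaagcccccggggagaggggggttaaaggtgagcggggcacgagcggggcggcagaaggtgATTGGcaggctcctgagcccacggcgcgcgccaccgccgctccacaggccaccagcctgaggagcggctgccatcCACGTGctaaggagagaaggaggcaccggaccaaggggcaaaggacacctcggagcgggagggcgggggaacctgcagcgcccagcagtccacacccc
Insig2: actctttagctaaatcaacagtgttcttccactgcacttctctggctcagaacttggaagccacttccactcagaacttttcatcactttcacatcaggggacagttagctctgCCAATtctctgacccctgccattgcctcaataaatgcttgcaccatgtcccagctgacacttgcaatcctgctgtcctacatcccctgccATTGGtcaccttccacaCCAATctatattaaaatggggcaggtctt

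Within the 250 bases before each start site, the E-box letters were found at 4 of the 16 start sites, 1 each of Insig1, Mlxipl, Mlx and Scap, against 6.02% of all 32851 RefSeq promoters of that length. The match lies 101 to 96 bases before the Insig1 start and 98 to 93 bases before the Mlxipl start. The NF-Y box, a partner element of sterol response promoters, was present at 7 of 16, in Srebf1, Srebf2, Insig1, Insig2, Mlxipl and Mlx, against 33.8% of all promoters, and the upstream Insig2 region holds 3 matches. The short sterol element was found once, before the inner start site of Mlxipl (1.05% of all promoters). The full sterol element (0.192%), the carbohydrate response element (0%) and the LXR direct repeat (0.0152%) were found at 0 of the 16. These are exact matches of letters in a short window and describe no binding. Variants of the letters were not searched, so 0 matches do not show that an element is absent.

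Srebf1 encodes SREBP-1a and SREBP-1c from separate start sites, which a gene-level count adds together (chromosome 11, 60199089 to 60222581, minus strand). In replicate order its level was 564, 841 and 534 CPM in fed control and 196, 94.9 and 87.0 CPM in fasted control livers. In knockout livers it was 890.3, 667 and 561 CPM fed and 178, 179 and 112 CPM fasted. Every fed library lay above every fasted library, and the lowest fed value (534 CPM) exceeded the highest fasted value (196 CPM). The change was -2.36 on the log2 scale in controls (SE 0.34, 5.13-fold lower, edgeR adjusted p = 0.0045) and -2.17 in knockouts (SE 0.34, 4.51-fold lower, adjusted p = 0.00922). The fall in controls was larger in size than that of 99.4% of all tested genes. Fasted control replicate 1 was the highest of the 6 fasted libraries, and replicates 2 and 3 were the lowest of the 12.

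Srebf2 encodes SREBP-2 (chromosome 15, 82147181 to 82205379). It was at 49.6, 57.7 and 54.6 CPM in fed and at 84.5, 78.7 and 70.1 CPM in fasted controls. The groups did not overlap, and the log2 difference of 0.53 (SE 0.17, edgeR adjusted p = 0.117) missed the threshold. In knockout livers it was at 60.3, 64.3 and 51.9 CPM fed and at 49.4, 81.4 and 48.7 CPM fasted, a difference of 0.03 (SE 0.17, adjusted p = 0.971) in which fasted replicate 2 was the highest and the other two fasted libraries the lowest. The difference between these responses was -0.50 (95% interval -1.04 to 0.03, adjusted p = 0.718), so it was not shown to depend on genotype.

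Per length, Srebf1 was the more abundant of the pair in all 12 libraries. In TPM (transcript abundance scaled for depth and gene length), the level of Srebf1 divided by that of Srebf2 was 14.5, 18.6 and 12.5 in fed and 2.96, 1.54 and 1.58 in fasted controls. It was 18.8, 13.2 and 13.8 in fed and 4.60, 2.80 and 2.94 in fasted knockouts. The feeding states did not overlap in this ratio in either genotype, and fasted knockout replicate 1 lay above the fasted control range while replicates 2 and 3 lay within it.

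**Figure D2:**
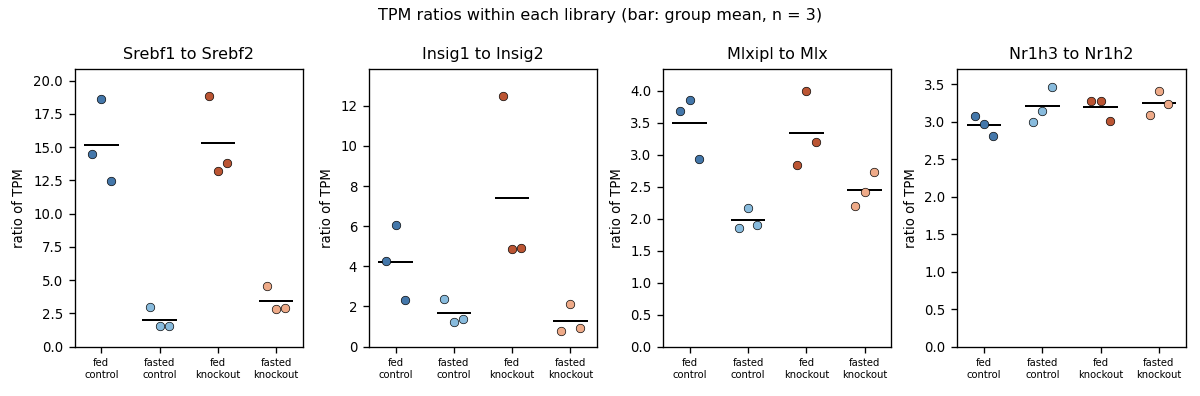
Ratio of TPM within each library (y axes) for 4 pairs of related regulators in the 4 groups; points are libraries and bars group means (n = 3). The Srebf1 to Srebf2 ratio falls from 12.5 or more in fed to 4.60 or less in fasted livers, and the Nr1h3 to Nr1h2 ratio stays between 2.80 and 3.46.

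Scap, which encodes the sterol-sensing escort protein (chromosome 9, 110333288 to 110384950), did not pass in either genotype. It was at 119.8, 162 and 97.0 CPM in fed control, 116, 124 and 105 in fasted control, 148, 133 and 120.3 in fed knockout and 103, 120.1 and 103 CPM in fasted knockout livers. The fasting difference was -0.14 in controls (SE 0.16, edgeR adjusted p = 0.699) and -0.30 in knockouts (SE 0.16, adjusted p = 0.434). In CPM the fasted knockout libraries lay just below the fed ones, while in TPM they overlapped (highest fasted 39.9, lowest fed 39.8). The fed and fasted controls overlapped.

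Insig1, which encodes the retention protein whose transcription SREBP itself drives, was the most abundant of the 9 per length in every group by its mean (chromosome 5, 28071363 to 28078662). It was at 496, 536 and 408 CPM in fed and 285, 193 and 177 CPM in fasted controls. In knockouts it was at 721, 468 and 569.9 CPM fed and 160.0, 229 and 178 CPM fasted. No fasted library reached the lowest fed library. The change was -1.14 in controls (SE 0.21, 2.20-fold lower, edgeR adjusted p = 0.0118) and -1.63 in knockouts (SE 0.22, 3.10-fold lower, adjusted p = 0.00279). The control result rested on few animals: without fasted control replicate 2 or replicate 3 the adjusted p was 0.0592 or 0.0594.

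Insig2 encodes the second retention protein, for which a fasting-induced liver transcript is known (chromosome 1, 121304353 to 121332589, minus strand). A gene-level count does not separate that transcript from the others. Insig2 was at 129.8, 99.5 and 197 CPM in fed and 134, 173 and 144 CPM in fasted controls, which overlap (log2 difference 0.08, SE 0.32, edgeR adjusted p = 0.926). It was at 64.9, 108 and 130.0 CPM in fed and 236, 120.1 and 213 CPM in fasted knockouts. There the difference was 0.91 (SE 0.33, adjusted p = 0.215), with fasted replicate 2 inside the fed range, and DESeq2 gave an adjusted p of 0.0484. The interaction was 0.83 (95% interval -0.19 to 1.84, adjusted p = 0.758), so a different response in the genotypes was not shown. Fed control replicate 3, the library with high stellate cell and cholangiocyte markers, held the highest fed value. Without it the control difference was 0.39 (adjusted p = 0.621).

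Within groups the pair of INSIG transcripts tended to stand in opposite order. In all 4 groups the library with the lowest Insig2 was the one with the highest Insig1 (TPM), and in 3 of 4 the library with the highest Insig2 had the lowest Insig1 (TPM), an order noticed after the values were seen and not tested. The latter depends on the unit. In CPM, fasted control replicate 2 had the highest Insig2 of its group but replicate 3 the lowest Insig1. The Insig1 to Insig2 ratio of TPM was 4.29, 6.05 and 2.32 in fed and 2.40, 1.25 and 1.38 in fasted controls, which overlap. It was 12.5, 4.85 and 4.92 in fed and 0.760, 2.14 and 0.942 in fasted knockouts, which do not overlap. Fasted knockout replicates 1 and 3 were the only 2 of the 12 libraries with more Insig2 than Insig1. The sum of both, in TPM, was 468 to 545 in fed and 252 to 339 in fasted controls, and 457 to 593 in fed and 269 to 304 in fasted knockouts. Divided by Scap, the summed level was 12 ± 2.6 in fed and 7.37 ± 0.90 in fasted controls and 12.2 ± 1.8 and 7.99 ± 1.1 in knockouts (SD, n = 3).

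**Figure D3:**
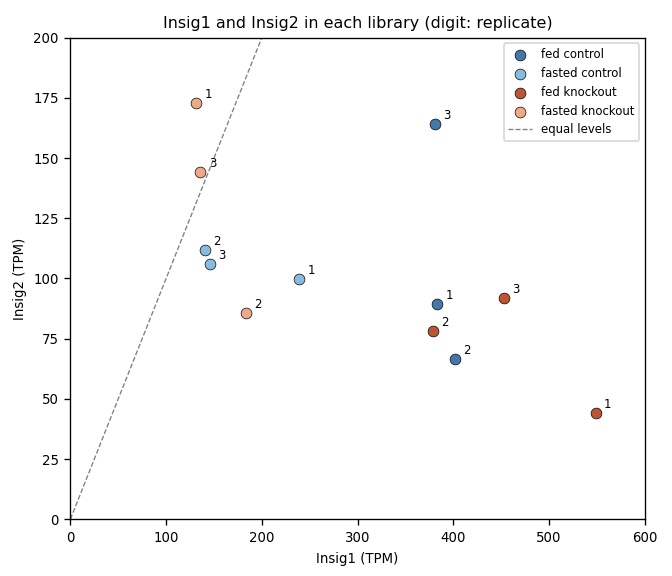
Insig1 (x axis) against Insig2 (y axis) in TPM for each of the 12 libraries, with the replicate number beside each point; the dashed line marks equal levels. Fasted libraries lie at or under 239 TPM of Insig1 and fed libraries at or above 379 TPM, while Insig2 spans 44 to 173 TPM with overlap between feeding states.

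Mlxipl, encoding ChREBP (chromosome 5, 135089890 to 135138382), was at 301, 313 and 227 CPM in fed and 139, 182 and 174 CPM in fasted controls. It was at 264, 334 and 282 CPM in fed and 179, 173 and 193 CPM in fasted knockouts. The feeding states did not overlap in either genotype. The change was -0.77 in controls (SE 0.15, 1.70-fold lower, edgeR adjusted p = 0.0125) and -0.69 in knockouts (SE 0.15, 1.62-fold lower, adjusted p = 0.0271). The knockout call ended when any 1 of the 6 knockout libraries was left out (adjusted p = 0.0654 to 0.116, change -0.76 to -0.59). The control call ended without fed control replicate 2 (0.0513) and in a fit of the control groups alone (0.0599), and the knockout call also on log2(TPM + 0.1) (0.0501) and with the replicate block (0.0524).

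Mlx, which encodes the partner that ChREBP needs to bind DNA (chromosome 11, 101087277 to 101092207), lay in a narrow band of 25.5 to 33.7 CPM over all 12 libraries. In controls it was at 29.5, 29.2 and 27.9 CPM fed and 27.2, 30.3 and 32.9 CPM fasted (0.06, SE 0.09, edgeR adjusted p = 0.769). In knockouts it was at 33.7, 30.2 and 31.8 CPM fed and 29.4, 25.8 and 25.5 CPM fasted (-0.24, SE 0.09, adjusted p = 0.24), with no overlap. Its interaction of -0.31 (SE 0.13) had an unadjusted p of 0.0396, the smallest of the 9, and an adjusted p of 0.678. In TPM the ratio of Mlxipl to Mlx was 2.94 to 3.86 in fed and 1.85 to 2.16 in fasted controls, and 2.84 to 3.99 in fed and 2.2 to 2.74 in fasted knockouts.

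Of the liver X receptors, Nr1h3 was higher in fasted livers when both genotypes were averaged, and Nr1h2 passed in no comparison. Nr1h3 (chromosome 2, 91184061 to 91202834, minus strand), which encodes LXRα, the form enriched in liver and macrophages, was at 81.3, 78.2 and 66.7 CPM in fed and 98.9, 92.3 and 97.9 CPM in fasted controls. It was at 81.0, 80.1 and 71.9 CPM in fed and 88.1, 89.5 and 87.4 CPM in fasted knockouts. Every fasted library lay above every fed one. Neither genotype passed alone, with 0.35 in controls (SE 0.09, edgeR adjusted p = 0.0548) and 0.19 in knockouts (SE 0.09, adjusted p = 0.4), and the mean of both did, at 0.27 (SE 0.07, 1.21-fold higher, adjusted p = 0.0239). That call was lost without fasted control replicate 1 (0.0523), fed knockout replicate 3 (0.071) or fasted knockout replicate 2 (0.055), and with limma on log2(TPM + 1) and log2(TPM + 0.1) (0.0818 and 0.0978), and with fed control replicate 3, fasted control replicate 3 and fed knockout replicate 1 left out together (0.0664). Summed Kupffer cell markers, all 7 of which were tested and none of which was at 0 in all libraries, were at 267 to 504 CPM in fed and 260 to 622 in fasted controls, and at 275 to 497 in fed and 253 to 356 CPM in fasted knockouts. The part of Kupffer cells in the Nr1h3 level was not tested.

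Nr1h2, which encodes the widely expressed LXRβ (chromosome 7, 44549616 to 44553951, minus strand), was at 35.3, 35.1 and 31.7 CPM in fed and 43.9, 39.1 and 37.7 CPM in fasted controls (0.24, SE 0.09, edgeR adjusted p = 0.138). It was at 32.9, 32.6 and 31.8 CPM in fed and 38.0, 35 and 36.0 CPM in fasted knockouts (0.16, SE 0.09, adjusted p = 0.419). In CPM the feeding states did not overlap within either genotype, while in TPM the controls did (24.2 to 27.3 fed and 26.2 to 33.9 fasted). The mean difference of 0.20 (SE 0.06, edgeR adjusted p = 0.0547) missed the threshold. Per length Nr1h3 stood 2.80 to 3.46 times as high as Nr1h2 in the 12 libraries, fed and fasted ranges overlapping.

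**Figure D4:**
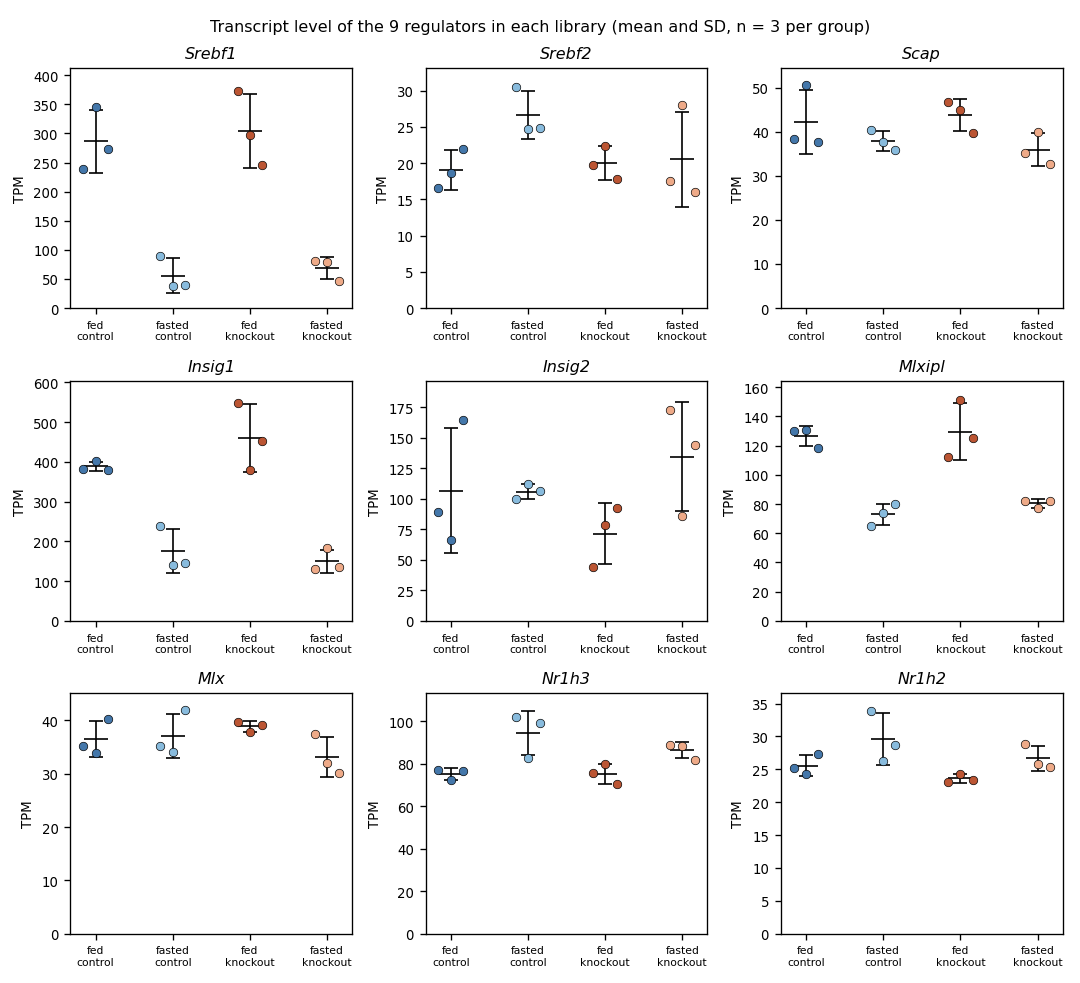
Level in TPM (y axes, from 0) of each of the 9 regulators in every library of the 4 groups, with mean and SD (n = 3). Srebf1, Insig1 and Mlxipl separate fed from fasted libraries in both genotypes, and Insig2 varies most among the fed controls (66.4 to 164 TPM).

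Ordered by mean TPM, fed control livers held Insig1 (388 ± 12), Srebf1 (286 ± 55), Mlxipl (126 ± 6.9), Insig2 (107 ± 51), Nr1h3 (75.3 ± 2.8), Scap (42.2 ± 7.2), Mlx (36.5 ± 3.4), Nr1h2 (25.6 ± 1.6) and Srebf2 (19.0 ± 2.7; SD, n = 3). The libraries of Mlxipl and Insig2, of Insig2 and Nr1h3, and of Scap and Mlx overlapped, and the remaining neighbours in this order did not. In fasted controls Srebf1 (55.7 ± 30) came after Insig1 (175 ± 55), Insig2 (106 ± 6.1), Nr1h3 (94.5 ± 10) and Mlxipl (73.0 ± 7.4), and overlapped with Mlxipl and Scap. Fed knockouts had the order of fed controls except that Nr1h3 (75.3 ± 4.7) came before Insig2 (71.4 ± 25), and these overlapped. In fasted knockouts the order was that of fasted controls. There each of the leading 5 overlapped with the next, from Insig1 (150.3 ± 29) over Insig2 (134 ± 45), Nr1h3 (86.4 ± 3.9) and Mlxipl (80.5 ± 2.9) to Srebf1 (68.6 ± 19).

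Between genotypes the 95% interval of every member included 0 in both feeding states, which does not show that there is no difference. In fed livers, knockout against control, the log2 difference was 0.13 for Srebf1 (95% interval -0.58 to 0.84), 0.29 for Insig1 (-0.17 to 0.75), -0.49 for Insig2 (-1.21 to 0.23) and 0.07 for Mlxipl (-0.25 to 0.38). In fasted livers it was 0.31 for Srebf1 (-0.40 to 1.03), -0.21 for Insig1 (-0.66 to 0.25), 0.34 for Insig2 (-0.38 to 1.05) and -0.38 for Srebf2 (-0.76 to 0.00013, unadjusted p = 0.0501, adjusted p = 0.554). A log2 difference of 1 in either direction lay outside the intervals of Srebf2, Scap, Insig1, Mlxipl, Mlx, Nr1h3 and Nr1h2 in both states, but inside that of Srebf1 in fasted livers and of Insig2 in both. Median differences over the 9 were 0.08 in fed and -0.13 in fasted livers, against -0.01 over all genes in both. In CPM the fed libraries do not overlap for Mlx and the fasted libraries do not overlap for Nr1h3 (1 of 9 each, against 12.3% and 14% of all genes). Mlx was the higher in knockout, as were 6.3% of all genes without overlap (5.99% lower), and Nr1h3 was the lower, as were 7.2% (6.82% higher). In TPM the genotypes overlap for both genes. Fed Mlx was at 33.9 to 40.3 TPM in control and 37.8 to 39.6 in knockout, and fasted Nr1h3 at 82.6 to 101.8 and 81.9 to 89.0 TPM. The interaction for Srebf1, at 0.19, had an interval of -0.82 to 1.19.

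The other genes of the circuit were read from 6 lists written from general knowledge, in which some genes recur. Among 14 genes of SREBP processing and turnover, 0 passed with fasting in controls by edgeR or DESeq2. By edgeR 1 was at an unadjusted p under 0.05 there, against 19.4% of all tested genes. In knockouts 1 fell, where 1.12% of all tested genes were lower. This was Erlin1, a membrane protein that restrains SREBP processing, from 72.0 ± 12 to 48.2 ± 7.0 CPM (-0.58, SE 0.13, edgeR adjusted p = 0.0407; in controls -0.28, adjusted p = 0.277). That call was lost when any of 10 of the 12 libraries was left out, all but fed control replicate 3 and fasted knockout replicate 2. It was also lost with the replicate block, in a fit of the knockout groups alone, and with limma on log2(TPM + 1) and log2(TPM + 0.1). The same held with fed control replicate 3, fasted control replicate 3 and fed knockout replicate 1 left out together. The site-1 and site-2 protease genes Mbtps1 and Mbtps2 stood at -0.11 and -0.20 in controls and -0.05 and -0.12 in knockouts (adjusted p = 0.642, 0.42, 0.903 and 0.749). The list medians were -0.12 and -0.03, beside 0.00 and -0.01 over all tested genes.

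Of 19 partners and cofactors, 2 fell in each genotype and 0 rose, beside 2.09% and 1.12% of all tested genes lower. Nfyb, a subunit of the NF-Y factor, fell from 39.7 ± 3.5 to 29.4 ± 2.6 CPM in controls (-0.43, SE 0.10, edgeR adjusted p = 0.0302) and from 37.7 ± 1.7 to 24.2 ± 2.2 CPM in knockouts (-0.64, SE 0.10, adjusted p = 0.00723). Mid1ip1, an activator of acetyl-CoA carboxylase, fell by 1.57 on the log2 scale in controls and by 1.94 in knockouts (adjusted p = 0.0189 and 0.0116). Rxra, the partner receptor of the LXRs, was at 438 ± 82 and 622 ± 28 CPM in fed and fasted controls (0.50, adjusted p = 0.0614) and at 514 ± 4.2 and 602 ± 52 CPM in knockouts (0.23, adjusted p = 0.497). Its mean difference over both genotypes passed, at 0.37 (adjusted p = 0.0338). Mlxip, the MLX partner related to ChREBP, stood at 0.21 and -0.09 (adjusted p = 0.556 and 0.872). List medians were 0.13 in controls and 0.19 in knockouts. The control count was 0 in a fit of the control groups alone and without fasted control replicate 3, and 1 with the replicate block and without fed control replicate 2 or fasted control replicate 1 or 2, and the knockout count was 1 without fed knockout replicate 1 or fasted knockout replicate 3.

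Of 18 tested lipogenic genes known as SREBP-1c targets, 13 fell in controls and 9 in knockouts with 0 higher, where 2.09% and 1.12% of all tested genes were lower, and the list medians were -1.75 and -1.35. Acaca and Acacb, the acetyl-CoA carboxylases, fell by 1.73 and 2.36 on the log2 scale in controls and by 1.40 and 2.1 in knockouts (edgeR adjusted p = 0.000147 and 0.000185, then 0.001 and 0.000934). Fasn, fatty acid synthase, went from 1892 ± 653 to 192 ± 39 CPM in controls and from 1536 ± 431 to 169 ± 36 CPM in knockouts (-3.30 and -3.18, adjusted p = 0.000185 and 0.000713). Acly, which makes cytosolic acetyl-CoA, fell by 2.05 and 1.99 on the log2 scale (adjusted p = 0.000296 and 0.000934). Scd1, the desaturase and also an LXR target, fell by 2.31 in controls (SE 0.39, adjusted p = 0.00769) and stood at -0.81 in knockouts (adjusted p = 0.335), and the interaction of 1.5 did not pass (adjusted p = 0.617). Leaving out single libraries gave counts of 11 to 12 in controls and 7 to 10 in knockouts. On log2(TPM + 1) and log2(TPM + 0.1) limma gave 12 and 12 in controls and 8 and 7 in knockouts. Left out together, fed control replicate 3, fasted control replicate 3 and fed knockout replicate 1 gave counts of 10 in controls and 10 in knockouts. Over all genes 263 and 237 of 15768 passed there.

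Of 23 tested sterol genes known as SREBP-2 targets (24 listed), 2 fell in controls and 4 in knockouts with 0 higher, beside 2.09% and 1.12% of all tested genes lower. DESeq2 called 6 and 10, and over all genes 1157 of 16195 in controls and 787 of 16732 in knockouts. The medians were -0.45 and -1.10. Sc5d, a late enzyme of cholesterol synthesis, fell from 783 ± 90 to 331 ± 85 CPM in controls and from 768 ± 70 to 310.0 ± 50 CPM in knockouts (-1.24 and -1.31, edgeR adjusted p = 0.00369 and 0.0041). Acat2, which joins acetyl-CoA units, fell in controls (-1.05, adjusted p = 0.0129) and stood at -0.81 in knockouts (adjusted p = 0.0555). Pmvk and Dhcr7, enzymes of the same pathway, fell in knockouts (-1.47 and -1.59, adjusted p = 0.0359 and 0.0473) and stood at -1.11 and -1.18 in controls (adjusted p = 0.0752 and 0.0977). In knockout livers all 23 genes had a negative value and 22 of 23 had a negative interaction, of which 0 passed by edgeR (0 at an unadjusted p under 0.05). The knockout count was 1 without any 1 of the fed knockout libraries or fasted knockout replicate 1 or 3, 2 without fed control replicate 1 or fasted control replicate 2, and 8 without fasted knockout replicate 2. The control count was 1 without fed control replicate 2 or fasted control replicate 2 or 3, and 4 without fasted control replicate 1.

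Of 16 tested ChREBP targets, 3 fell in controls and 2 in knockouts with 0 higher (medians -0.29 and -0.09), beside 2.09% and 1.12% of all tested genes lower. DESeq2 called 5 in each, and over all genes 1157 of 16195 in controls and 787 of 16732 in knockouts. Of these, 2 are also in the lipogenic list: Acacb and Pnpla3, which went from 6.10 ± 2.4 to 0.145 ± 0.20 CPM in controls. Pklr, liver pyruvate kinase, went from 544 ± 138 to 121 ± 54 CPM in controls (-2.17, edgeR adjusted p = 0.0179) and was at 392 ± 152 and 152 ± 66 CPM in knockouts (-1.37, adjusted p = 0.127). Of 17 LXR targets, 2 fell in controls (where 2.09% of all tested genes were lower), Scd1 and the phospholipid-remodelling gene Lpcat3 (-0.66, SE 0.12, adjusted p = 0.0104). With the same 3 libraries left out, 2 ChREBP and 0 LXR targets passed in controls. In knockouts 0 passed by edgeR and 5 by DESeq2. By edgeR 9 were at an unadjusted p under 0.05, as were 14.6% of all tested genes. Averaged over both genotypes 7 LXR targets fell, among them the sterol exporter gene Abca1 (-0.39, edgeR adjusted p = 0.00806), with 0 higher. In that average 4.52% of all tested genes passed as lower. The LXR list medians were -0.38 and -0.42, and the Nr1h3 differences were positive.

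**Figure D5:**
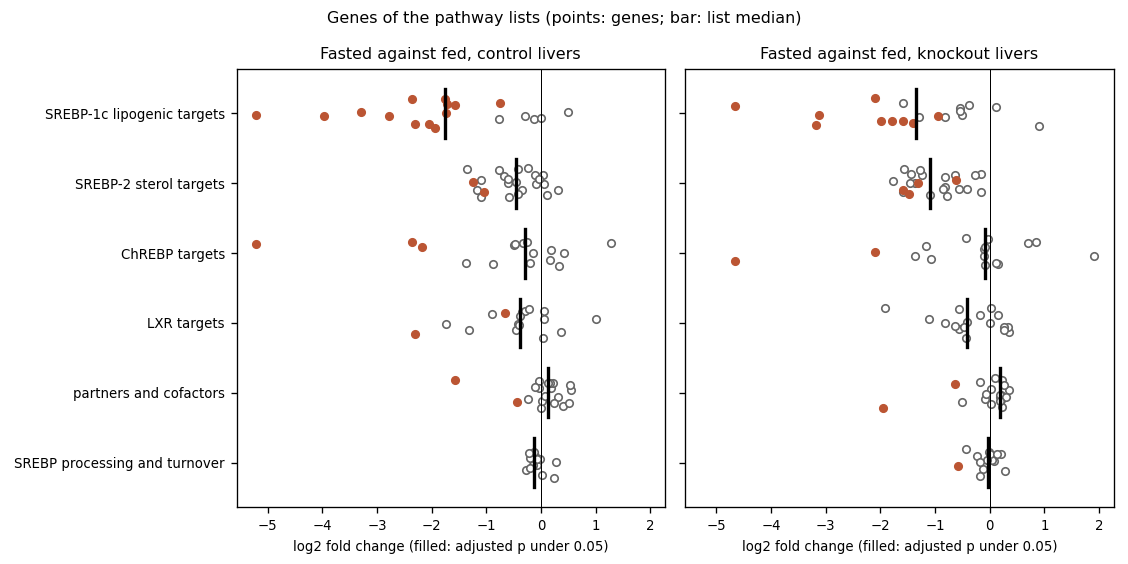
Log2 fold change with fasting (x axis) of each tested gene in 6 pathway lists, in control (left) and knockout livers (right); filled points passed the adjusted p of 0.05 and bars mark list medians. The lipogenic list has medians of -1.75 and -1.35, and the processing list lies around 0.

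Across the 12 libraries, the genes closest in pattern were found among 11918 others by Pearson's r of log2 CPM, given as a description because fed and fasted libraries form separate sets. Closest to Srebf1 were Pstpip2 (r = 0.98), Prss8 (0.97) and the sterol enzyme gene Sc5d (0.97), and among the closest to Insig1 were Sc5d (0.96) and Paox (0.96). Sc5d was thus among the 3 closest to both. Closest to Mlxipl were Rps23-ps2 (0.95), Lpar2 (0.95) and Tfpi2 (0.94), and closest to Insig2 were Ube2f (0.94), Gtf2ird1 (0.94) and Aldh1a1 (0.92). Ubxn6 was among the 3 closest to Nr1h3 (0.95), with Ogfod2 (0.97) and Bcat2 (0.96), and to Nr1h2 (0.93), with Mmp11 (0.90) and Chchd10 (0.90). For Srebf2 they were Zfp653 (0.88), Cebpd (0.87) and Ccdc86 (0.86), for Scap Dclk3 (0.94), Rps4x (0.90) and Rps29 (0.90), and for Mlx Tbce (0.91), Acvr2b (0.90) and Sema4g (0.90).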

How the data were processed

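RNA was isolated from frozen liver, and strand-specific poly(A) libraries were made, per the labels' protocols. The authors deposited raw counts for Ensembl genes and TPM for the same genes. The submitters' processing notes name bcl2fastq, Trimmomatic 0.38, HISAT2 2.1.0, featureCounts 1.6.3, DESeq2 1.24.0 and build mm10. Neither strand setting nor annotation release is given in the sources used here. Libraries were grouped by their titles.

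Genes passing filterByExpr (15862) were tested on raw counts with edgeR 4.0.16 in R 4.3.3 (TMM factors, robust quasi-likelihood F test, 2-sided, 12 libraries and 4 group means in 1 fit), adjusted over all tested genes. CPM were scaled by TMM factors; intervals are 95%. The fit was tested on simulated data. P-values set a difference against the spread between animals within groups (3 each). In the main fit that spread was estimated jointly over the 4 groups, with information shared across genes. Alternatives were RLE and upper-quartile factors, other filters (none, or 1 CPM in 3 libraries), DESeq2 1.42.0, limma 3.58.1 on voom values or log2 TPM (pseudocounts 1 and 0.1, filter 0.5 TPM in 3 libraries), a fit of the compared groups, a replicate block and leaving out libraries. Leaving out 3 libraries together was chosen after seeing the data. The members, lists and the naming rule (all members, Foxo3, up to 4 genes with the smallest p per list and fasting comparison, the 3 closest genes per member) were chosen with earlier results of these data known; Mlxip and Mbtps1 were named outside that rule, after their values were seen. A planned comparison of proteins was not made. Some genes that the naming rule gives are not reported here.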

Additional observations from a re-analysis of the deposited data

How the results depend on the processing

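The number of the 9 regulators called stayed within 1.5 times its value or at 0 in each comparison, with leave-one-out ranges of 2 to 4 in controls, 2 to 3 in knockouts and 3 to 5 for the mean. Of 1224 single values over 6 comparisons and up to 23 alternatives, 1166 kept direction and call, 9 gained a call, 18 lost one and 31 reversed; the causes were not tested. Srebf1 in both genotypes and Insig1 in knockouts were called under all 23. Calls lost are given beside the genes above. Calls gained were Nr1h3 in controls (adjusted p = 0.0483 with upper-quartile factors, 0.0478 with the 1 CPM filter, 0.0132 with DESeq2), Srebf2 in controls without fasted knockout replicate 2 (0.022), Insig2 in knockouts (DESeq2, 0.0484) and Nr1h2 for the mean (0.0469 to 0.0487).

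All reversed values (log2) belonged to differences that did not pass. Srebf2 with fasting in knockouts was -0.014 with limma-voom and -0.000121 and -0.0016 on log2(TPM + 1) and log2(TPM + 0.1), where Nr1h3 between fed genotypes was -0.000981 and -0.00101. With the 3 libraries left out together, Mlx with fasting in controls was -0.035, and between fed genotypes Srebf1 was -0.20, Scap -0.16, Insig1 -0.00049, Insig2 0.048, Mlxipl -0.0044 and Nr1h3 -0.078; the Scap interaction was 0.017. Leaving out single libraries moved fasting differences in controls over -0.30 to 0.087 (Scap), -0.12 to 0.39 (Insig2) and -0.0057 to 0.13 (Mlx), and Srebf2 in knockouts over -0.26 to 0.16. Between fed genotypes the ranges were -0.074 to 0.36 (Srebf1), -0.087 to 0.30 (Scap), -0.076 to 0.15 (Mlxipl) and -0.049 to 0.10 (Nr1h3), and between fasted genotypes -0.37 to 0.036 (Insig1). Interactions ranged over -0.050 to 0.67 (Srebf1), -0.38 to 0.0056 (Scap) and -0.025 to 0.21 (Mlxipl).

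Replicate numbers did not pair the libraries: same-number pairs correlated at -0.28 to 0.18 (median -0.071, 18 pairs). With the replicate block 3 members were called in controls, 2 in knockouts, 4 for the mean and 0 elsewhere. Over all 15862 genes 439, 232 and 1086 passed in those 3 fasting comparisons, against 657, 393 and 1438 in the main fit. Mlxipl in knockouts had -0.68 (edgeR adjusted p = 0.0524). SREBP-2 targets called went from 4 to 7 in knockouts and from 2 to 3 in controls. Processing genes went from 1 to 0 in knockouts, and partners and cofactors from 2 to 1 in controls.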
